A study of Mus musculus with 5 samples.

Results

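The 9 genes described here are *Nr4a1*, *Nr4a2*, *Nr4a3*, *Egr1*, *Egr2*, *Egr3*, *Nab2*, *Cd5* and *Irf4*, whose transcripts report the strength of T cell receptor (TCR) signalling. They were chosen by name, as members of the NR4A and EGR families with their corepressor NAB2, the surface receptor CD5 and the transcription factor IRF4. All 9 were found among the 55487 genes of the count files, and all 9 were among the 13525 genes expressed well enough to be tested. Their RNA was measured in CD4 single positive (SP) thymocytes from 5 mice, 3 of them wild type (WT) and 2 *Tet2/3* DKO, with 1 SMART-seq library per mouse. The *Tet2/3* DKO mice are labelled Tet2-/-Tet3flx/flxCD4cre. They lacked *Tet2* in all cells and lost *Tet3* through a Cre driven by *Cd4* regulatory sequences, which acts from the double positive (DP) stage. The control mice are labelled wild type and no Cre is named for them, so the Cre and the loss of TET2 and TET3 cannot be told apart. All mice are given as C57BL/6J, and the methods of the study give their age as 21 to 30 days. The cells of both groups were sorted as live, CD24 low, CD4+, TCRb+ and CD8-, without cells that bind the CD1d tetramer loaded with alpha-galactosylceramide, which marks iNKT cells.

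TCR engagement activates the ERK kinases and the phosphatase calcineurin, and these switch on the EGR and NR4A genes within minutes to hours. EGR1, EGR2 and EGR3 are zinc finger transcription factors, and NR4A1 (Nur77), NR4A2 (Nurr1) and NR4A3 (Nor1) are orphan nuclear receptors. In the thymus both families rise during positive and negative selection, and reporters of *Nr4a1* transcription and surface CD5 are widely used to read how strongly a thymocyte responds to self peptides. TET proteins oxidise 5-methylcytosine in DNA, a step in the removal of DNA methylation, which was not measured in these libraries.

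Reads counted on genes numbered from 17607089 to 27267031 per library. *Tet3* had between 1082 and 1440 counts in WT against 419 and 235 in *Tet2/3* DKO replicates 1 and 2. *Tet2* had 1286 to 1585 counts in WT against 1919 and 1048 in *Tet2/3* DKO, a log2 fold change of 0.46 after scaling to library size (adjusted p 0.135 by edgeR). It was 0.72 without *Tet2/3* DKO replicate 2, which passed the threshold (adjusted p 0.000505 by edgeR), and 0.095 without replicate 1 (adjusted p 0.725). Gene counts do not show the loss of single exons. *Tet2/3* DKO replicate 1 stands apart from the other 4 libraries. It held 744 *Xist* counts and 7 counts of 4 Y-linked genes, although it is labelled male, and 5.70% of its reads lay on no annotated feature (3.51% to 3.72% in the others). WT replicate 1 is labelled female and held 0 *Xist* and 6821 Y-linked counts. For the 65 genes refitted with 1 library left out, each change below is therefore also given without *Tet2/3* DKO replicate 1 where that moves it across the threshold.

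The promoters of the 3 NR4A genes are shown first because they carry the same short element. Each window is the 250 bases before a transcription start in RefSeq (GRCm38.p6), and the bases that overlap an exon of the gene itself in GENCODE M21 are left out. Windows of 7 of the 9 genes were examined. Capitals mark CGTCA on either strand, the core of the cAMP response element to which CREB family factors bind.
Nr4a1 (chr15:101266596-101266845, plus strand): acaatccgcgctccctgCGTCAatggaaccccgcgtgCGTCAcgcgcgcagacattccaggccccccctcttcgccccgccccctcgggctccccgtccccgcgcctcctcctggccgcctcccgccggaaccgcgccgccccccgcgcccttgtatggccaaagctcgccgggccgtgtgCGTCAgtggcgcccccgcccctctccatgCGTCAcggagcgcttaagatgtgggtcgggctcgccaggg
Nr4a2 (chr2:57124004-57124253, minus strand): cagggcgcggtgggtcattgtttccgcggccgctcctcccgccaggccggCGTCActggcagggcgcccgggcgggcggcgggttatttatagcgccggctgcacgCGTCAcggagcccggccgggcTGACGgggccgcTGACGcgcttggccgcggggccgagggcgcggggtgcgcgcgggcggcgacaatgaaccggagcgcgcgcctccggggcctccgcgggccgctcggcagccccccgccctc
Nr4a3 (chr4:48045055-48045152, plus strand, the first 98 bases of the window): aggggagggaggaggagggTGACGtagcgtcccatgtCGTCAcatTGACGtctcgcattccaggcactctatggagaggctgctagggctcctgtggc
CGTCA occurred 4 times in each of the 3 windows, with 3 of the 4 copies of *Nr4a3* inside the stretch printed. In 32807 windows of the same length, 17.8% held at least 1 copy and 0.137% at least 4. The full element TGACGTCA was found in no window of these 3 genes. CpG dinucleotides numbered 34 in the *Nr4a1* window, 44 in that of *Nr4a2* and 18 in that of *Nr4a3*, with a median of 6 over all windows. CGTCA itself contains a CpG, and its share among windows equally rich in CpG was not counted. The shares over all windows are therefore not a like background for these 3. The *Nr4a1* window lies inside the gene as GENCODE draws it, upstream of an internal start and in no exon.

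Promoters of *Egr2*, at 1 of its 5 annotated starts, and of *Cd5* are printed for contrast. In *Egr2* the capitals mark 2 copies of CGTCA and, between them, a CArG box, the element bound by serum response factor (SRF), which 1.47% of all windows hold. In *Cd5* they mark GGAAGT, a core bound by ETS factors, which 19.7% of all windows hold.
Egr2 (chr10:67537619-67537868, plus strand): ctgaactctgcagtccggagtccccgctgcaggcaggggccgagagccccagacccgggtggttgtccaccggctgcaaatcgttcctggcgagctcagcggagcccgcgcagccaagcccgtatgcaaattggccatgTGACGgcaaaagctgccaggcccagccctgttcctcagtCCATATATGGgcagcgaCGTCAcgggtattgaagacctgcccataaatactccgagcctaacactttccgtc
Cd5 (chr19:10739003-10739224, minus strand, the first 222 bases of the window): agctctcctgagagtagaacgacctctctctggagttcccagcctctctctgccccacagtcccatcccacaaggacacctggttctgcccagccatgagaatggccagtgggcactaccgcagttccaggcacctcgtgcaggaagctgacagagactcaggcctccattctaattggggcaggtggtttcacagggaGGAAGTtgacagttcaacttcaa
The *Cd5* window held no CGTCA and only 3 CpG, and 29.0% of all windows had fewer. The windows of *Nab2* and *Irf4* held none of these 3 elements. The elements were picked after the sequences had been seen, and a match describes letters and shows no binding.

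In WT CD4 SP cells the 9 genes spanned a wide range of levels. Per kilobase of exon, *Cd5* was the most abundant at 184 ± 5.98 CPM per kb (CPM is the count scaled to library size by TMM; SD, n = 3), above 97.9% of the tested genes. *Nr4a1* followed at 56.4 ± 5.59 CPM per kb and *Egr1* at 27.5 ± 3.69. *Nab2* had 15.1 ± 1.30 CPM per kb and *Egr2* 11.2 ± 1.28. The *Nab2* level leaves out reads that overlap other genes, and counts split by strand added up to 106% more, so its place relative to *Egr1* and *Egr2* was not settled in either group. The other 4 genes were scarce, with *Irf4* at 1.36 ± 0.25 CPM per kb, *Nr4a2* at 0.89 ± 0.19, *Nr4a3* at 0.62 ± 0.22 and *Egr3* at 0.49 ± 0.08. WT values of neighbours in this order overlapped for *Nr4a2* and *Nr4a3* and for *Nr4a3* and *Egr3*, so those positions were not told apart. The order was the same when levels were divided by the longest transcript or the longest coding length. By the mean of the *Tet2/3* DKO libraries *Cd5*, *Nr4a1* and *Egr1* kept ranks 1 to 3, whereas *Egr2* stood above *Nab2*, *Nr4a2* above *Irf4* and *Egr3* above *Nr4a3*. These last 3 exchanges were seen in replicate 2 and not in replicate 1, where for example *Egr2* had 6.94 CPM per kb and *Nab2* 12.2.

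**Figure D1:**
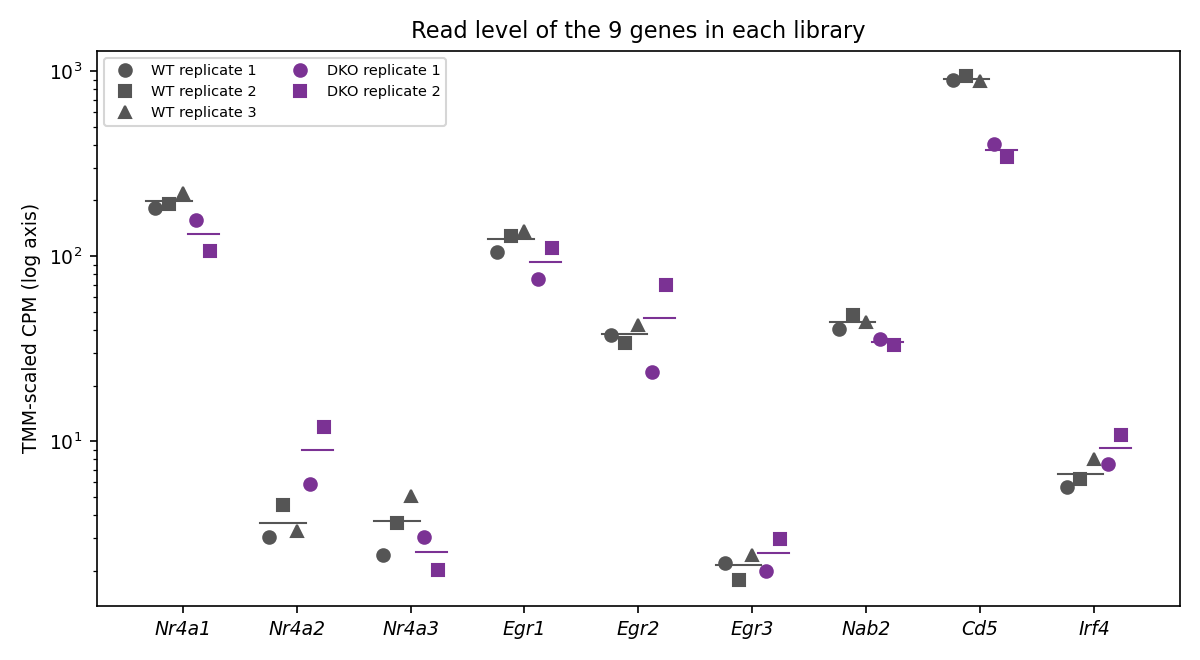
TMM-scaled CPM (log axis) of the 9 genes, with grey symbols for the 3 WT libraries, purple symbols for the 2 *Tet2/3* DKO libraries and lines for the group means. *Cd5* sat between 886 and 941 CPM in WT and at 404 and 344 in *Tet2/3* DKO, while the purple symbols of *Egr2* lay on opposite sides of the grey ones.

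*Cd5* was 2.43-fold lower in *Tet2/3* DKO than in WT cells, and this change stood out from the spread between mice. In both *Tet2/3* DKO mice *Nr4a1* and *Nab2* lay below and *Nr4a2* above all WT libraries, but none of these passed the test (log2 fold changes of -0.59, -0.36 and 1.29). *Egr2* was below WT in 1 *Tet2/3* DKO mouse and above WT in the other. *Nr4a3*, *Egr1*, *Egr3* and *Irf4* overlapped between the groups. With edgeR's quasi-likelihood test and an adjusted p-value threshold of 0.01, 1 of the 9 genes was called different, *Cd5*, against 3.92% of all tested genes (2.42% higher and 1.5% lower). At a threshold of 0.05 the number was 2 (*Cd5* and *Nr4a2*), where 8.68% of all tested genes passed. An unadjusted p under 0.05 was reached by 5 of 9 genes and by 23% of all tested genes. DESeq2 called 3 of 9 at 0.01 (*Cd5*, *Nr4a1* and *Nr4a2*) and 6.91% of the genes it tested. Both *Tet2/3* DKO libraries lay above every WT library for *Nr4a2* only, a pattern that 19.6% of tested genes had. They lay below every WT library for *Nr4a1*, *Nab2* and *Cd5*, as in 19.5% of tested genes, and 39.1% had either pattern. Simulated counts of the same size were drawn with the same spread for every gene and both groups. In them the edgeR test recovered 71 of 100 genes changed by 1 on the log2 scale and 96 of 100 changed by 2. The real *Tet2/3* DKO libraries differed more from each other than any WT pair did (chi-square per gene 31.2 against 8.70 to 16.9). The simulated shares therefore do not tell what share the test would recover in these data.

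**Figure D2:**
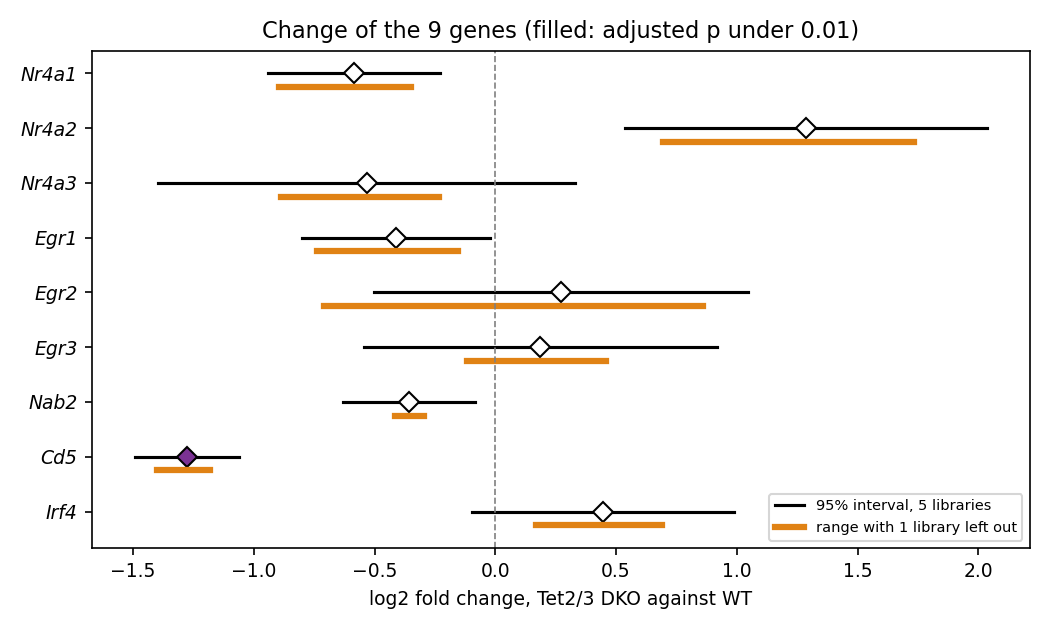
Log2 fold change of *Tet2/3* DKO against WT (horizontal axis) for each of the 9 genes, with black lines for the 95% interval from edgeR and orange lines for the range when 1 library is left out. Only the marker of *Cd5* is filled (adjusted p under 0.01), and the orange line of *Egr2* runs from -0.71 to 0.86.

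CD5 is a scavenger receptor family glycoprotein that dampens TCR signalling, and its level is set during selection. *Cd5* (ENSMUSG00000024669, chromosome 19 of mm10, 10717116 to 10739002) fell in *Tet2/3* DKO cells. Its counts were 23142, 22329 and 24308 in WT replicates 1 to 3, against 8467 and 6150 in the *Tet2/3* DKO mice, replicate 1 first. Both *Tet2/3* DKO libraries lay far below all WT libraries, and the spread within each group was small. The means were 907 ± 29.4 CPM (SD, n = 3) in WT and 374 ± 42.1 CPM (SD, n = 2) in *Tet2/3* DKO, which is 2.43-fold lower. The log2 fold change was -1.28 (SE 0.10, 95% interval -1.49 to -1.06), and edgeR gave an adjusted p of 8.59e-05 (quasi-likelihood test, Benjamini-Hochberg). It ranked 41 of 13525 by p. *Cd5* was called in 16 of 16 alternative analyses, and with 1 library left out the log2 fold change ranged from -1.40 to -1.18 (largest adjusted p 0.00265 by edgeR). In bulk RNA, fewer cells with high *Cd5* and less *Cd5* RNA per cell cannot be told apart.

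Genes around *Cd5* were examined after its value had been seen. Within 250 kb on either side 14 other genes were tested, and 2 of them were called, both lower, where 1.5% of all tested genes were called lower. *Cd6*, which encodes a closely related receptor and lies 50339 bases away from *Cd5*, had 28147, 25736 and 26477 counts in WT against 9569 and 6691 in *Tet2/3* DKO replicates 1 and 2. Its log2 fold change was -1.33 (SE 0.11, adjusted p 0.00015 by edgeR), close to that of *Cd5*. *A430093F15Rik* lies between the pair, 1945 bases from *Cd5* and on the opposite strand. It had 1648, 1347 and 1583 counts in WT against 461 and 580 in *Tet2/3* DKO, a log2 fold change of -1.13 (SE 0.16, adjusted p 0.00276 by edgeR). This last call was lost when WT replicate 1, 2 or 3 was left out (adjusted p 0.0228, 0.0250 and 0.0243). The nearest tested gene on the other side, *Vps37c*, had a log2 fold change of -0.37 (adjusted p 0.238), and *Tmem109*, beyond *Cd6*, had -0.51 (adjusted p 0.0142), both by edgeR. Both passed without *Tet2/3* DKO replicate 2, *Vps37c* at -0.68 (adjusted p 0.00944) and *Tmem109* at -0.59 (adjusted p 0.00390), while without replicate 1 *Vps37c* had -0.11. *Tmem109* also passed with DESeq2 (adjusted p 0.000155).

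**Figure D3:**
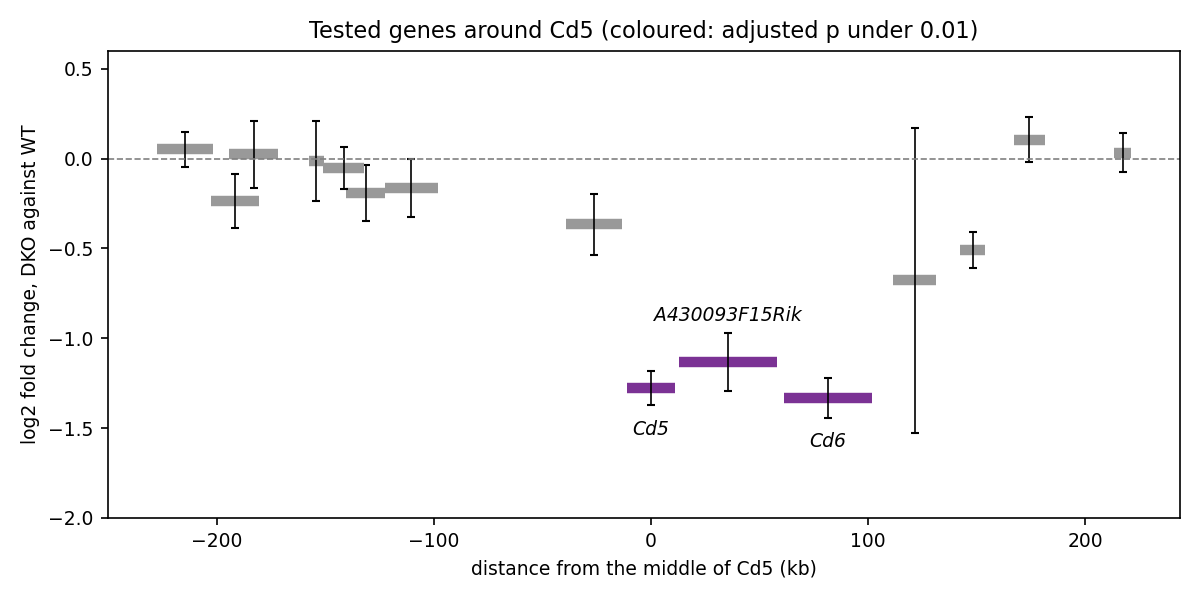
Log2 fold change of *Tet2/3* DKO against WT (vertical axis, error bars SE) of tested genes by distance in kb from the middle of *Cd5*, each bar spanning its gene. The purple bars of *Cd5*, *A430093F15Rik* and *Cd6* (adjusted p under 0.01) lie side by side between -1.33 and -1.13, and the grey bars nearest to them lie above -0.70.

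The 5 profiles most like that of *Cd5*, by the root mean square difference of log2 CPM centred on the WT mean over the 5 libraries, belonged to *Cd6* (0.063), *Itgb3* (0.074), *Rasal1* (0.081), *Cd8b1* (0.082) and *Tesc* (0.087). They were picked from 8391 genes whose mean log2 CPM was 3 or more. *Itgb3* encodes an integrin beta chain, *Rasal1* a Ras GTPase activating protein, *Cd8b1* the CD8 beta chain and *Tesc* the calcium-binding protein tescalcin. Among the 9 genes, the profile nearest to *Cd5* was that of *Nr4a1*, at the larger distance of 0.45.

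*Nr4a1* (ENSMUSG00000023034, chromosome 15, 101254269 to 101274795) had 4706, 4558 and 6034 counts in WT against 3290 and 1906 in *Tet2/3* DKO. Scaled to library size these were 182, 192 and 220 CPM against 157 and 107 CPM, so both *Tet2/3* DKO libraries lay below all WT libraries, the second by more. The log2 fold change of -0.59 (SE 0.16, 95% interval -0.94 to -0.23) missed the threshold (adjusted p 0.0525 by edgeR). DESeq2 gave an adjusted p of 0.00463. Without *Tet2/3* DKO replicate 1 the value was -0.90 (adjusted p 9.03e-05), and without replicate 2 it was -0.35 (adjusted p 0.0641), both by edgeR. In these fits the single *Tet2/3* DKO library is assumed to vary as the WT libraries do. The most similar profiles to *Nr4a1* were those of *Bach2* (0.048), *Mfsd4a* (0.055), *Dbp* (0.064), *Rasl11b* (0.065) and *Klf2* (0.066). *Bach2* encodes a transcriptional repressor and *Klf2* a factor of quiescence and egress, and neither passed the threshold over all libraries (adjusted p 0.0680 and 0.0127 by edgeR). Without *Tet2/3* DKO replicate 1 both did, at -0.83 for *Bach2* (adjusted p 0.001) and -0.86 for *Klf2* (adjusted p 2.84e-05), and *Klf2* passed in 6 of 16 alternatives.

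*Nr4a2* (ENSMUSG00000026826, chromosome 2, 57106830 to 57124003) pointed the other way. Its counts were 79, 107 and 90 in WT against 123 and 214 in *Tet2/3* DKO replicates 1 and 2. Scaled values were 3.06, 4.51 and 3.28 CPM in WT against 5.86 and 11.97 CPM, so the groups did not overlap although all values were low. The log2 fold change of 1.29 (SE 0.33, 95% interval 0.54 to 2.04) had an adjusted p of 0.0447 by edgeR and 0.00821 by DESeq2. Without *Tet2/3* DKO replicate 1 it was 1.73 (adjusted p 7.74e-05), and without replicate 2 it was 0.69 (adjusted p 0.119), both by edgeR. *Nr4a3* (ENSMUSG00000028341, chromosome 4, 48045153 to 48086447) had 63, 86 and 138 counts in WT against 64 and 36 in *Tet2/3* DKO. Its groups overlapped, and the log2 fold change of -0.53 had a wide 95% interval, from -1.40 to 0.33 (adjusted p 0.467 by edgeR).

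Because *Nr4a1* was by far the most abundant, it set the level of the family. The summed NR4A level was 53.0, 56.4 and 64.3 CPM per kb in WT against 46.7 and 33.7 in *Tet2/3* DKO replicates 1 and 2. *Nr4a1* made up 97.0% to 97.8% of this sum in WT, and 95.8% and 90.2% in *Tet2/3* DKO. *Nr4a2* made up 1.42%, 1.97% and 1.26% in WT against 3.10% and 8.76% in *Tet2/3* DKO, so its level stayed far below that of *Nr4a1* in every library.

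None of the 3 EGR genes passed the test over all libraries. *Egr1* (ENSMUSG00000038418, chromosome 18, 34859823 to 34864984) had 2715, 3038 and 3764 counts in WT against 1569 and 1985 in *Tet2/3* DKO, or 105, 128 and 137 CPM against 74.8 and 111 CPM. *Tet2/3* DKO replicate 1 was below all WT libraries and replicate 2 was within their range. The log2 fold change was -0.41 (SE 0.17, 95% interval -0.80 to -0.02, adjusted p 0.190 by edgeR). It was -0.74 without *Tet2/3* DKO replicate 2, which passed the threshold (adjusted p 0.00251 by edgeR), and -0.15 without replicate 1 (adjusted p 0.567). The profiles nearest to *Egr1* were those of *Carm1* (0.056), *Ddx19a* (0.068), *Rhot2* (0.069), *Zfp282* (0.072) and *Fads1* (0.087), none of which was called over all libraries. *Ddx19a* passed without *Tet2/3* DKO replicate 2 (-0.70, adjusted p 0.00880).

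*Egr2* (ENSMUSG00000037868, chromosome 10, 67535475 to 67542188) lay on opposite sides of WT in the *Tet2/3* DKO mice. It had 970, 809 and 1172 counts in WT against 495 and 1242 in *Tet2/3* DKO replicates 1 and 2. In CPM, 23.6 in replicate 1 was below and 69.5 in replicate 2 was above the whole WT range of 34.1 to 42.7. The average log2 fold change of 0.27 (SE 0.34, 95% interval -0.50 to 1.05, adjusted p 0.708 by edgeR) describes neither mouse. Set against WT alone, replicate 2 gave 0.86 and replicate 1 gave -0.71 by edgeR. Such a fit takes the spread of its only *Tet2/3* DKO library from WT, so it does not measure the spread between *Tet2/3* DKO mice. *Egr3* (ENSMUSG00000033730, chromosome 14, 70077203 to 70082614) was scarce, with 57, 42 and 67 counts in WT against 42 and 53 in *Tet2/3* DKO. Its groups overlapped, with a log2 fold change of 0.19 (95% interval -0.55 to 0.92, adjusted p 0.798 by edgeR).

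Summed over the family, the EGR level was 35.0, 39.0 and 43.7 CPM per kb in WT against 24.1 and 45.9 in *Tet2/3* DKO replicates 1 and 2. *Egr2* made up between 25.7% and 31.6% of it in WT and 28.8% in *Tet2/3* DKO replicate 1, but 44.6% in replicate 2.

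**Figure D4:**
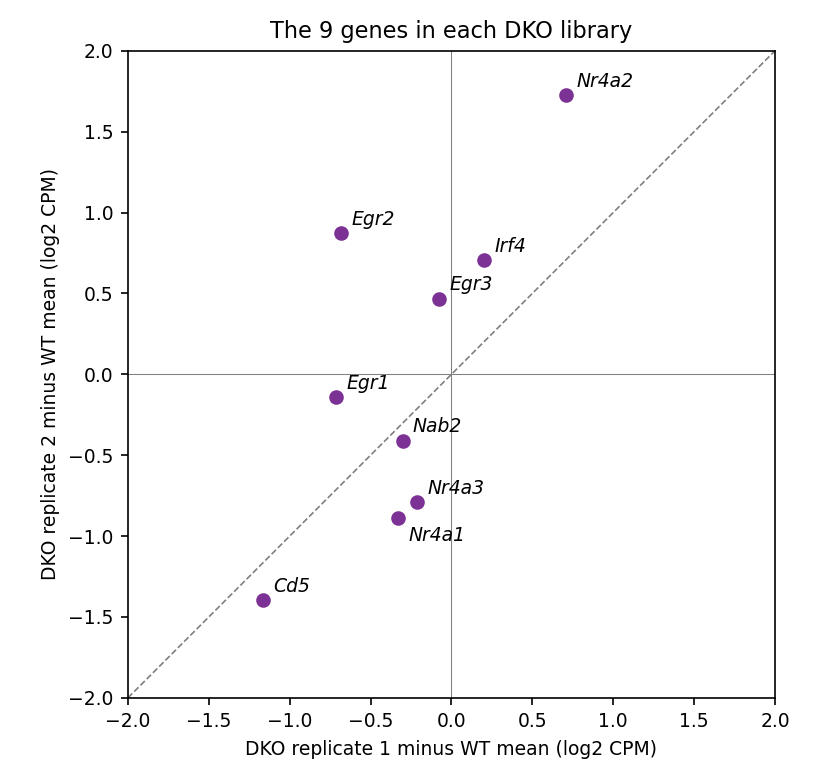
Difference of log2 CPM from the WT mean for the 9 genes, *Tet2/3* DKO replicate 1 on the horizontal axis and replicate 2 on the vertical axis, with the dashed line where both are equal. *Cd5* and *Nab2* lie next to the line, and *Egr2* lies in the quadrant of opposite signs (-0.68 and 0.87).

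The *Tet2/3* DKO mice differed most from each other in *Egr2*, by 1.55 on the log2 CPM scale, a larger gap than that of 95.7% of tested genes. *Nr4a2* followed with a gap of 1.02 (larger than 90.2%). *Nr4a1*, *Nr4a3*, *Egr1*, *Egr3* and *Irf4* differed by 0.51 to 0.58 in size, above the median of 0.25 over all tested genes. *Cd5* and *Nab2* were the most alike in the 2 libraries, with gaps of 0.23 and 0.11 in size. The genes lower in replicate 2 than in replicate 1 were *Nr4a1*, *Nr4a3*, *Nab2* and *Cd5*, and the other 5 were higher there.

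NAB2 binds EGR factors and represses their targets, and *Nab2* is itself switched on by EGR factors. *Nab2* (ENSMUSG00000025402, chromosome 10, 127660918 to 127668568) had 1050, 1145 and 1207 counts in WT against 751 and 594 in *Tet2/3* DKO, or 40.6, 48.2 and 44.0 CPM against 35.8 and 33.2 CPM. The groups did not overlap, but the log2 fold change of -0.36 (SE 0.12, 95% interval -0.63 to -0.09) was not called (adjusted p 0.110 by edgeR). Exons of other genes on the opposite strand cover much of *Nab2*, of which the lncRNA *Gm16229* alone covers 35.7% of its 2941 exonic bases. Reads there are left out of counts made without strand, and counts split by strand added up to 106% more for *Nab2*. The *Nab2* level therefore leaves out the reads in these overlaps, which cannot be assigned because 49.8% to 50.2% of reads fell on either strand in each library. *Irf4* (ENSMUSG00000021356, chromosome 13, 30749226 to 30766976), a factor whose level is graded with TCR signal strength, had 146, 149 and 221 counts in WT against 159 and 193 in *Tet2/3* DKO. Its groups overlapped at 5.65 to 8.05 CPM in WT against 7.58 and 10.8 CPM, with a log2 fold change of 0.45 (SE 0.24, 95% interval -0.10 to 0.99, adjusted p 0.317 by edgeR). Among the 9 genes the closest profiles were those of *Egr3* and *Irf4* (0.22), *Egr1* and *Nab2* (0.24) and *Nr4a1* and *Nab2* (0.24).

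The kinases, phosphatases and DNA-binding factors that carry the TCR signal to these genes were mostly not called. Of 28 tested, 1 rose and 1 fell (7.14%, against 3.92% of all tested genes), and the median log2 fold change was 0.03, against 0.01 over all tested genes. The gene that rose was *Ppp3cc*, which encodes a catalytic subunit of calcineurin, with 1721, 1532 and 1759 counts in WT against 6058 and 5551 in *Tet2/3* DKO. Its log2 fold change was 2.20 (SE 0.09, adjusted p 2.92e-06 by edgeR), and it was called in 16 of 16 alternatives. *Prkd2*, a kinase activated by diacylglycerol downstream of the TCR, fell by 0.65 (adjusted p 0.00254 by edgeR) but was not called without WT replicate 1, 2 or 3 (largest adjusted p 0.0252). *Mapk3*, which encodes ERK1, had a log2 fold change of -0.55 (adjusted p 0.0191 by edgeR). It passed the threshold without *Tet2/3* DKO replicate 1 (-0.62, adjusted p 0.00546 by edgeR) and with DESeq2 (adjusted p 0.000485). *Sos1*, a Ras activator, had 0.77 (adjusted p 0.197 by edgeR), which was 1.19 without *Tet2/3* DKO replicate 2 (adjusted p 0.00291) and 0.08 without replicate 1.

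Of 31 other tested genes of the early TCR response 4 rose and 1 fell (16.1%, against 3.92% of all tested genes). The median log2 fold change was 0.35. The genes that rose were *Srgn* (1.20), *Icos* (1.08), *Spry1* (1.25) and *Xcl1* (2.23), which encode the granule proteoglycan serglycin, a costimulatory receptor, an inhibitor of the ERK pathway and a chemokine. *Icos* had 0.67 without *Tet2/3* DKO replicate 2 and was the call lost with robust moderation of the dispersions (adjusted p 0.0306 by edgeR). *Dusp6*, whose product dephosphorylates ERK, fell by 0.74 on the log2 scale. Chosen after the values were seen, the activation marker *Cd69* had 6006, 5431 and 6566 counts in WT against 15191 and 6217 in *Tet2/3* DKO, a log2 fold change of 1.20 (adjusted p 0.0131 by edgeR). Without *Tet2/3* DKO replicate 1 it was 0.57 (adjusted p 0.000579). With 1 library left out, the called genes of this list numbered 0 (without WT replicate 2 or 3) to 12 (without either *Tet2/3* DKO replicate), and with robust moderation of the dispersions 3 rose and 2 fell.

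Like the other lists, the genes known as targets or partners of EGR and NR4A factors were chosen with earlier results of these data known. The median log2 fold change of the 28 tested genes was 0.85. Of these 28, 6 were called, all higher (21.4%, where 2.42% of all tested genes were called higher). They were *Zbtb16* (3.85), which encodes PLZF of innate-like T cells, the cell cycle inhibitor *Cdkn1a* (2.79), the inhibitory receptor *Lag3* (4.58), neuritin *Nrn1* (3.14), the calmodulin-binding *Nrgn* (1.86) and the chemokine *Ccl3*. *Zbtb16* had 32, 13 and 24 counts in WT against 251 and 253 in *Tet2/3* DKO. *Lag3* had 103, 104 and 135 counts in WT against 633 and 3297 in *Tet2/3* DKO, and *Ccl3* had 1, 1 and 2 against 12 and 717. *Lag3* and *Ccl3* were thus far higher in replicate 2 than in replicate 1, whereas *Zbtb16*, which is also a marker of innate-like T cells, was alike in both. *Nab1*, the other NAB corepressor, had a log2 fold change of 0.06, and *Id3*, an EGR target in thymocytes, had -0.67 (adjusted p 0.760 and 0.0318 by edgeR). *Id3* passed with DESeq2 (adjusted p 0.00109) and without *Tet2/3* DKO replicate 2 (-1.01, adjusted p 1.36e-05 by edgeR), and had -0.39 without replicate 1. With robust moderation of the dispersions 3 of the 6 calls were lost, with adjusted p-values of 0.127 for *Lag3*, 0.0410 for *Nrn1* and 0.0689 for *Ccl3* by edgeR. Without *Tet2/3* DKO replicate 2 the log2 fold change was 2.75 for *Lag3* and 2.03 for *Nrn1*, and *Ccl3* was not called (adjusted p 0.0187). Without WT replicate 1, 2 or 3 the list had 1 call, and without *Tet2/3* DKO replicate 1 or 2 it had 12. Natural killer and innate-like markers, a list that also holds *Zbtb16*, moved the same way as these 6 genes, and 7 of its 11 genes rose (41.9 to 54.1 CPM in summed level in WT against 436 and 797 in *Tet2/3* DKO). Their part in the list's change was not tested.

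Receptors, adaptors and phosphatases that tune TCR signalling, to which *Cd5* belongs by function, had 26 tested genes besides it. Of these 5 rose and 2 fell (26.9%, against 3.92% of all tested genes), with a median log2 fold change of 0.20. *Cd6* fell, and so did *Ubash3b*, which encodes a phosphatase that restrains TCR signalling (-0.78). *Slamf6* (1.14), *Izumo1r* (0.71), *Ly6c2* (1.32), *Ly6c1* (0.88) and *Nt5e* (1.74) rose. Leaving out *Tet2/3* DKO replicate 2 gave 1.01 for *Nt5e* and leaving out replicate 1 gave 2.23, and it was not called with robust moderation (adjusted p 0.0781 by edgeR). *Izumo1r* and *Nt5e* encode folate receptor 4 and CD73, which mark self-reactive and anergic CD4 cells, and Ly6C in naive CD4 cells is known to go with low CD5. Without WT replicate 1, 2 or 3 only 2 of the 26 were called, and without *Tet2/3* DKO replicate 1 there were 12, and without replicate 2 there were 8.

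**Figure D5:**
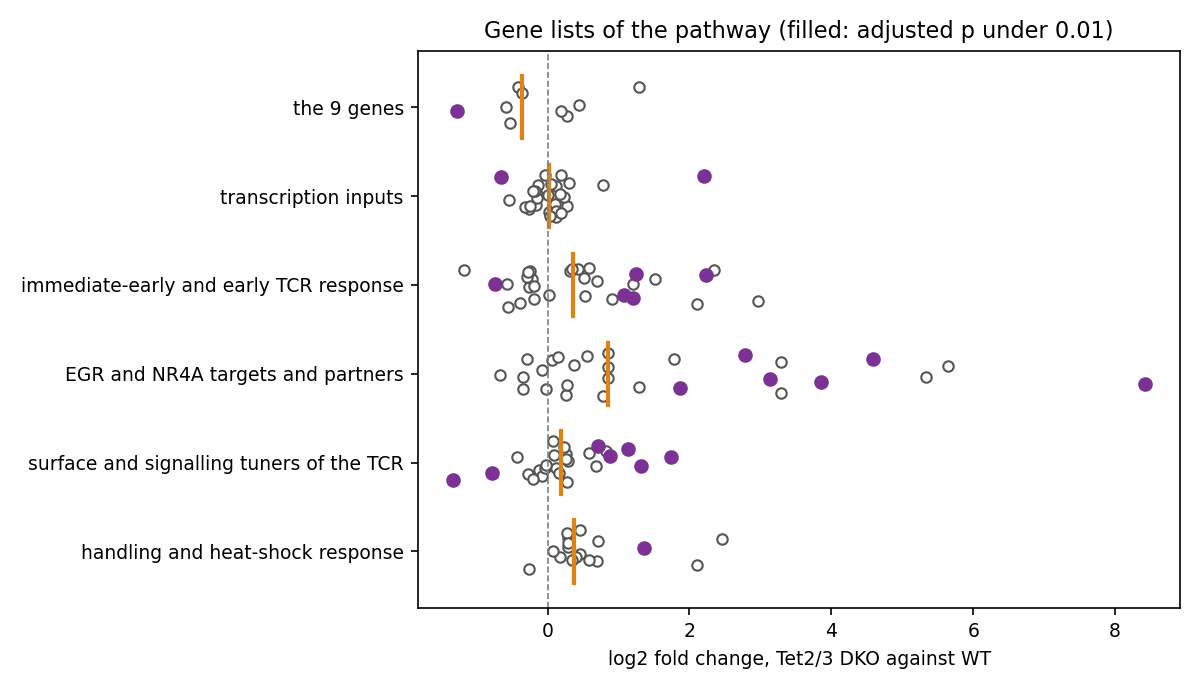
Log2 fold change of *Tet2/3* DKO against WT (horizontal axis) of each tested gene of the 9 and of 5 related lists, filled where the adjusted p was under 0.01, with orange bars for the medians. The median of the EGR and NR4A targets (0.85) lies to the right of the others, and the rightmost filled point is *Ccl3*.

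Genes induced by tissue handling and heat shock overlap with the immediate-early response. Of 18 tested genes 1 rose, *Socs3* (1.36), and the list had 5.56% called, against 3.92% of all tested genes. Its median log2 fold change was 0.37, and 17 of the 18 had a positive value, against 6908 of all 13525 tested genes. Of the 18, 9 were higher at an unadjusted p under 0.05 by edgeR, against 1672 of all 13525. *Socs3* was not called without WT replicate 1, 2 or 3, and 6 genes were called without *Tet2/3* DKO replicate 2. *Btg2*, *Hspa8* and *Dnajb1* had 0.35, 0.29 and 0.28 and were not called (adjusted p 0.0302, 0.0642 and 0.106 by edgeR). *Btg2* passed the threshold in 1 of 16 alternatives and the other genes in 0. The summed level of the list was 4218, 4645 and 4082 CPM in WT against 6657 and 4430 in *Tet2/3* DKO replicates 1 and 2. *Fos* had 6109, 9653 and 4805 counts in WT against 13673 and 4292 in *Tet2/3* DKO, a log2 fold change of 0.71 (adjusted p 0.343 by edgeR). It was 1.24 without *Tet2/3* DKO replicate 2 (adjusted p 0.00372) and -0.18 without replicate 1 (adjusted p 0.759). The list was thus highest in the library with the lowest *Egr1* and *Egr2*, and its part in their levels was not tested.

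Marker lists of the sorted cells and of other cell types were examined in the same libraries. Of all tested genes 2.42% were called higher and 1.5% lower. CD4 SP markers were present in every library, with summed levels of 15204 to 16025 CPM in WT against 15453 and 13465 in *Tet2/3* DKO replicates 1 and 2, and 4 of 14 fell, among them *Cd4* (-0.67) and *Zbtb7b* (-1.17). *Cd4* was not called without WT replicate 1, 2 or 3 (adjusted p 0.0419, 0.0364 and 0.0203 by edgeR), nor *Zbtb7b* without WT replicate 2 or 3 (adjusted p 0.0138 and 0.0198). *Rag1* was at 0 in all libraries, and of the 6 tested DP and CD8 markers *Cd8b1* fell (log2 fold change -1.29). *Cd8a* was the 1 marker of the 6 with a positive log2 fold change (0.94, not called), and both *Tet2/3* DKO libraries lay above WT. The list summed to 250, 237 and 278 CPM in WT against 197 and 158, mostly from *Cd1d1* (151, 134 and 161 CPM against 142 and 101). Regulatory T cell markers summed to 755 to 940 CPM in WT against 346 and 610 in *Tet2/3* DKO, and 1 of 7 fell. This was *Foxp3*, with 1147, 1379 and 1490 counts in WT against 376 and 435 in *Tet2/3* DKO (log2 fold change -1.31, adjusted p 0.00191 by edgeR). *Foxp3* was not called without WT replicate 2 or 3 (largest adjusted p 0.0208 by edgeR). With the counts of either strand alone its log2 fold change was smaller, -0.59 (adjusted p 0.0119, not called) and -0.70 (adjusted p 0.00264). *Ncr1*, a defining natural killer marker, had 1, 0 and 0 counts in WT against 31 and 40 in *Tet2/3* DKO, and was not called without WT replicate 1, 2 or 3 (largest adjusted p 0.0152 by edgeR). Of the B cell markers 2 of 4 tested rose, *Ighm* and *Blk*. Their list summed to 552 to 641 CPM in WT against 1032 and 1246, nearly all of it *Ighm* (545 to 635 CPM against 1018 and 1220). *Cd79a* lay below every WT library in both *Tet2/3* DKO libraries (log2 fold change -0.67, not called), and *Pax5* had at most 8 counts in any library. Myeloid markers summed to 177 to 217 CPM in WT against 232 and 358 in *Tet2/3* DKO, and 0 of 7 were called by edgeR at 0.01 or by DESeq2, while 4 had an unadjusted p under 0.05. With 1 library left out the calls numbered 0 to 6 of the 14 CD4 SP markers, 0 to 4 of the 7 regulatory T cell markers, 0 to 2 of the 4 B cell markers, 0 to 4 of the 7 myeloid markers and 3 to 10 of the 11 innate-like markers. The part of *Foxp3* and of the 7 innate-like markers that rose in the values of *Cd5*, *Nr4a1* and *Nr4a2* and of the 6 called targets was not tested.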

How the data were processed

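The authors trimmed reads of SMART-seq libraries with fastp 0.21.0, aligned them to mm10 (STAR 2.7.5a, annotation GRCm38.100) and deposited each library's read count per gene, neither normalized nor pooled. Reads on several places or on overlapping genes are not in these counts. Column 2 (without strand) was used. GENCODE M21 held 55227 of the 55487 identifiers and supplied symbols, coordinates and exon lengths.

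Counts were fitted with edgeR 4.0.16 (TMM, filterByExpr with a minimum count of 10, quasi-likelihood test, newer moderation) in R 4.3.3, 2 *Tet2/3* DKO against 3 WT libraries without covariates. P-values were adjusted by Benjamini-Hochberg over all 13525 tested genes, with a threshold of 0.01. The SE is the size of the log2 fold change over the square root of F. Log2 CPM used a prior count of 2. The study used DESeq2, and DESeq2 1.42.0 was an alternative. The test was checked on simulated data.

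The 9 genes and all lists were chosen with earlier results of these data known. Named genes are the 9, the called genes of each pathway list (up to 8, filled to 4 by p), the 5 nearest profiles of *Nr4a1*, *Egr1* and *Cd5*, *Tet2*, *Tet3* and sex-linked genes. Others named were chosen after their values were seen, as were the genes around *Cd5*. Tables of TCR clonotypes were not used here. One gene of the marker lists is not reported here. Replicates are different mice.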

Additional observations from a re-analysis of the deposited data

How the results depend on the processing

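The number of genes past the threshold was 530, with 1 of the 9 genes among them. DESeq2 gave 1027 genes and 3 of the 9, and a threshold of 0.05 gave 1174 and 2. With 1 library left out the numbers ranged from 110 genes (without WT replicate 2) to 1312 (without *Tet2/3* DKO replicate 1), and from 1 to 4 of the 9. Fits with 1 *Tet2/3* DKO library take its spread from WT. With 1 library left out the log2 fold change changed sign in *Egr2* (-0.71 to 0.86), *Egr3* (-0.12 to 0.46), *Fads1* (-0.74 to 0.016) and *Fos* (-0.18 to 1.24). *Egr3* was also -0.12 with the counts of 1 strand. The cause was not tested. Of 1034 alternative values for 65 genes, 897 kept their direction and side of the threshold. With the direction kept, 102 no longer passed it and 30 newly passed it. The other 5 are the changes of sign above, of which that of *Egr2* also newly passed (adjusted p 0.00684 by edgeR). No scaling moved the median log2 fold change of all tested genes by over 0.1.

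Replicate numbers are shared by the groups in the labels, but deviations of same-numbered libraries correlated at 0.015 and 0.004, so the numbers do not pair the mice. With the replicate block 359 genes and 1 of the 9 passed, and *Cd5* had a log2 fold change of -1.30 (adjusted p 0.00052 by edgeR).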

Other observations

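Around the other 8 genes, within 250 kb on either side, 37 neighbours were tested and 4 were called, against 3.92% of all tested genes. Near *Egr3* these were *Ppp3cc*, 135251 bases away, and *Gm49417*, which overlaps *Ppp3cc* on the opposite strand (log2 fold changes of 2.20 and 2.79), so that their reads cannot be fully told apart without strand. *Shmt2*, an enzyme of serine and glycine metabolism, lies 138474 bases from *Nab2* and rose by 0.66. *Acvrl1*, a receptor of the TGF-beta family, lies 108933 bases from *Nr4a1* and fell by 0.97 (adjusted p 0.00449 by edgeR). *Gm49417*, *Shmt2* and *Acvrl1* were not called without WT replicate 1, 2 or 3 (largest adjusted p 0.0474, 0.0226 and 0.0375 by edgeR). *Gm49417* was also not called without *Tet2/3* DKO replicate 1 (2.43, adjusted p 0.0197), nor were *Gm49417* and *Shmt2* with the replicate block (adjusted p 0.0340 and 0.0108).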
